A study of Mus musculus with 12 samples.

Results

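The 46 genes described here encode proteins that condense chromosomes, build the mitotic spindle, hold chromosomes to it, time their separation and divide the cell. They were named as a list of mouse symbols, with no measured value in the rule, and were looked up among the 48709 Ensembl gene identifiers of the count tables. All 46 were found, and all were among the 16511 genes with enough reads to be tested. The libraries came from the embryonic cortex of C57BL/6J mice at E15.5 (counted in days of gestation) and fell into 3 groups of 4: Control, BAF155 cKO and a group labelled Pax6 cKO, where cKO stands for conditional knockout. Smarcc1 encodes BAF155, a core subunit of the BAF (mSWI/SNF) chromatin remodelling complex, and Pax6 is a transcription factor of cortical progenitors. The labels name neither the promoter that drove recombination nor the control genotype, and they are silent on whether each library stands for an embryo of its own. The p-values below therefore measure the spread between libraries, which may be technical. The question the design poses is how gene expression in each group labelled as a knockout differed from Control.

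At this age the progenitors of the cortex divide in separate layers. Radial glia divide at the ventricular surface, and basal progenitors divide away from it. Most genes of mitosis are transcribed in waves late in the cell cycle, under the MuvB, B-MYB and FOXM1 factors, and their messages are removed as cells leave the cycle. The level of such a gene in whole tissue therefore depends on how many cells are cycling as well as on its level in each cell. In bulk tissue, fewer cells of a type and less RNA per cell cannot be told apart, and this holds for every value below.

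Library totals lay between 15155249 and 32047949 counted reads, and the 46 genes had between 109 and 11693 reads in a library. Levels are given in CPM, the reads of a gene in each 1000000 reads of its library, after scaling by trimmed mean of M-values (TMM). Smarcc1 stood at 303 ± 68.7 CPM in Control (SD, n = 4), 127 ± 10.8 in BAF155 cKO and 186 ± 6.71 in the libraries labelled Pax6 cKO. Pax6 stood at 110.2 ± 19.1 CPM in Control, 314 ± 40.3 in BAF155 cKO and 389 ± 8.74 in the libraries labelled Pax6 cKO. The Pax6 level thus went against the label, although counts over a whole gene do not measure the deleted part. Read from Xist and Y-linked counts, all 4 BAF155 cKO libraries were female and all 4 libraries labelled Pax6 cKO were male, while Control 1 and 2 were male and Control 3 and 4 female. By the names of the deposited files, all 4 controls were sequenced in lane 8, and BAF155 cKO 1 and 2 and all libraries labelled Pax6 cKO in lane 1. BAF155 cKO 3 and 4 were in lane 3, so lane and the contrast with Control cannot be told apart. None of the 46 genes lies on chromosome X or Y.

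Promoters of mitotic genes often carry a CCAAT box, bound by NF-Y, and a cell cycle genes homology region (CHR), bound by MuvB complexes. Both were searched as plain letters, CCAAT and the CHR forms TTTGAA and TTCGAA, on both strands in the 250 bases before each start (RefSeq, GRCm38.p6). The table held 42 such windows for 39 of the 46 genes. CCAAT was present in 33 of the 42 windows (78.6%) and in 33.8% of all 32851 windows. TTTGAA was present in 18 of the 42 (42.9%) and in 15.99% of all windows, and TTCGAA in 2 (4.76%) and 1.34%. A CHR form and CCAAT stood together in 18 of the 42 windows (42.9%) and in 6.02% of all. These matches describe letters in a window, and whether they are bound or act on expression was not tested. 6 windows are printed 5′ to 3′ with the matched letters, on either strand, in capitals: 2 of genes that were higher in both groups labelled cKO (Spc25, Nuf2), 1 of a gene higher in the libraries labelled Pax6 cKO (Cdk1) and 3 of genes lower there (Mki67, Bub1b, Plk1).
Spc25, chr2:69206214-69206463, minus strand: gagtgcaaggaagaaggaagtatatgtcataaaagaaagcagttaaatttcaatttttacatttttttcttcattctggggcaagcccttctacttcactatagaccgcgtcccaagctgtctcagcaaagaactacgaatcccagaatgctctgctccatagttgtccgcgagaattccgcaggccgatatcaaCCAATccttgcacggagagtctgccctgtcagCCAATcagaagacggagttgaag
Nuf2, chr1:169531465-169531714, minus strand: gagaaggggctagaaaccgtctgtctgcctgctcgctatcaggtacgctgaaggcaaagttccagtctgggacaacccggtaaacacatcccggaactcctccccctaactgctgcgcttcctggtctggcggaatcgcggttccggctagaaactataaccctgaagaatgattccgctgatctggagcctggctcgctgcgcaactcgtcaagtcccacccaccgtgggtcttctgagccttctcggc
Cdk1, chr10:69352913-69353162, minus strand: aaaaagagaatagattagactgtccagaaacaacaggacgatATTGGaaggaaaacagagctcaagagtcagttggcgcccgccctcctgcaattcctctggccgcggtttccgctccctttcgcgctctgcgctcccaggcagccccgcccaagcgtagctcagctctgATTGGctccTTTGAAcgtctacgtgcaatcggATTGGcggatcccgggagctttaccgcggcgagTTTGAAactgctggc
Mki67, chr7:135716380-135716629, minus strand: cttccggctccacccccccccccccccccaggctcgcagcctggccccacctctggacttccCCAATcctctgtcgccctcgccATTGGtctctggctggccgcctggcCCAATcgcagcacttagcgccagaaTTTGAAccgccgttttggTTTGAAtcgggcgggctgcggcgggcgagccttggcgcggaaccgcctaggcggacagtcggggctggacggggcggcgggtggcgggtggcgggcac
Bub1b, chr2:118597961-118598210, plus strand: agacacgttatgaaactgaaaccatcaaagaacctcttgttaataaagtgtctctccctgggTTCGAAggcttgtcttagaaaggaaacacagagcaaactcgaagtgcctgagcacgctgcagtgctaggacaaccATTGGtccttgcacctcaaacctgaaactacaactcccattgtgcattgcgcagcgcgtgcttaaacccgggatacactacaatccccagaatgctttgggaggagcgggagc
Plk1, chr7:122159185-122159434, plus strand: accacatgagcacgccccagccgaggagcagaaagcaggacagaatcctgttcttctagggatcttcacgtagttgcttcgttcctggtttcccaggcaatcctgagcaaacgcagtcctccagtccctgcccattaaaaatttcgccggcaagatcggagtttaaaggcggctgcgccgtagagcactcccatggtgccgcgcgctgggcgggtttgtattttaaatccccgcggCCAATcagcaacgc
The last base of each window is the one before the RefSeq start. Mki67 held CCAAT at −188, −166 and −141 and TTTGAA at −116 and −98, and Cdk1 held CCAAT at −208, −80 and −48 and TTTGAA at −71 and −15. Bub1b held TTCGAA at −188 and CCAAT at −113. Spc25 held CCAAT at −55 and −23 and Plk1 at −14, with neither CHR form, and Nuf2 held none of the 3 motifs in its window. Positions count back from the start and give the first base of the match.

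Per kilobase of exon, which is the only scale on which levels of different genes are compared here, the highest control levels were those of Ncapd2 (44.3 ± 7.07 CPM per kb), a condensin subunit, Top2a (41.8 ± 10.8), the topoisomerase that untangles sister DNA, and Smc4 (35.4 ± 6.63), the condensin ATPase. The lowest were those of Pttg1 (3.57 ± 0.481), which encodes the separase inhibitor securin, and Ndc80 (3.85 ± 0.579), an outer kinetochore subunit. Within the other roles the highest control levels per kilobase belonged to Cdc20 (29.97 ± 7.06), the activator of the anaphase-promoting complex, Ccna2 (29.6 ± 7.14), cyclin A, Tpx2 (28.5 ± 7.92), a spindle assembly factor, and Racgap1 (23.8 ± 4.83), a subunit of centralspindlin. Bub3 (21.4 ± 1.19) led the checkpoint genes, Kif11 (20.4 ± 4.90) the kinesins, Incenp (19.2 ± 5.07) the passenger complex and Spc25 (17.1 ± 1.77) the kinetochore genes. The spans of 1 SD overlapped among Ncapd2, Top2a and Smc4, and between Pttg1 and Ndc80. They also overlapped among Cdc20, Ccna2 and Tpx2, so the order within each of these sets is not resolved.

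Summed over the 46 genes, the level was 3473, 4462, 3538 and 3181 CPM in BAF155 cKO 1 to 4. It was 2814, 3922, 4409 and 4489 CPM in Control 1 to 4, and the libraries labelled Pax6 cKO 1 to 4 had 3599, 3671, 3671 and 3830 CPM. The controls therefore spread more than either group labelled cKO, and both of these lay inside the range of the controls. The group means were 3908 ± 771 CPM in Control, 3664 ± 555 in BAF155 cKO and 3693 ± 97.4 in the libraries labelled Pax6 cKO (SD, n = 4 each).

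**Figure D1:**
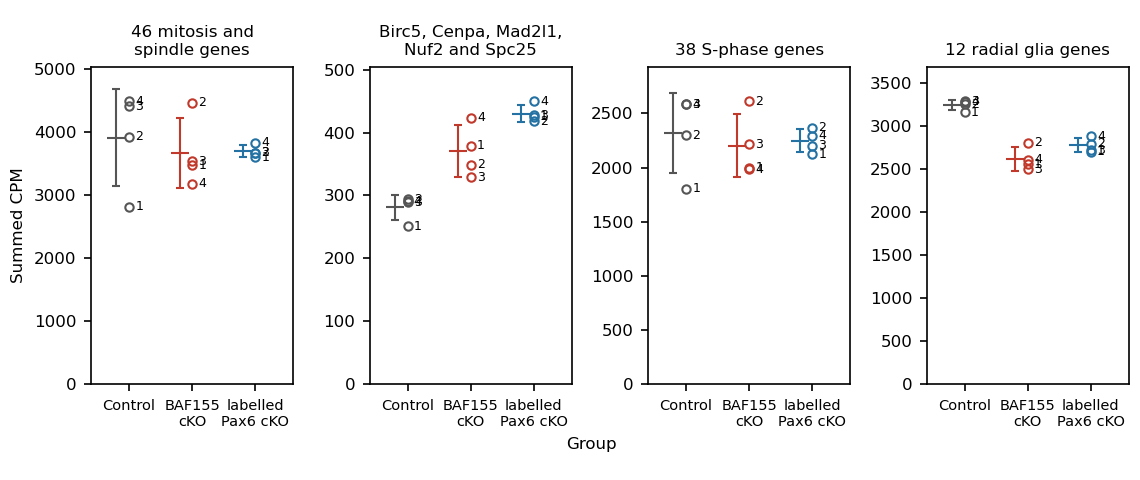
Summed level in CPM (y axis) by group (x axis), with a panel each for the 46 genes, for Birc5, Cenpa, Mad2l1, Nuf2 and Spc25, for 38 S-phase genes and for 12 radial glia genes; circles are libraries numbered by replicate, and bars beside them give the mean and SD (n = 4). For the 46 genes Control 1 lies lowest at 2814 CPM and Control 4 highest at 4489 CPM, with both groups labelled cKO between them.

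Control 1 was the lowest of the 12 libraries for 36 of the 46 genes and the lowest control for 45. The highest of the 12 was BAF155 cKO 2 for 12 genes, Control 4 for 13, Control 3 for 9 and the library labelled Pax6 cKO 4 for 7. In a fit with the controls split by sex, 45 of 46 genes had higher fitted levels in the 2 female than in the 2 male controls, with a median log2 difference of 0.40 against 0.00 over all genes tested. By edgeR, 25 of the 46 lay at an unadjusted p under 0.05 in that fit. After adjustment 1 of the 46 passed the test (2.17%), and 0.645% of all genes did. This was Ttk, which encodes the checkpoint kinase MPS1, at 20.4 and 25.01 CPM in the male and 45.5 and 44.3 CPM in the female controls. Control 1 is one of the 2 male controls, so its part and that of sex cannot be told apart. The counts below are therefore given again without Control 1 and against same-sex controls alone.

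**Figure D2:**
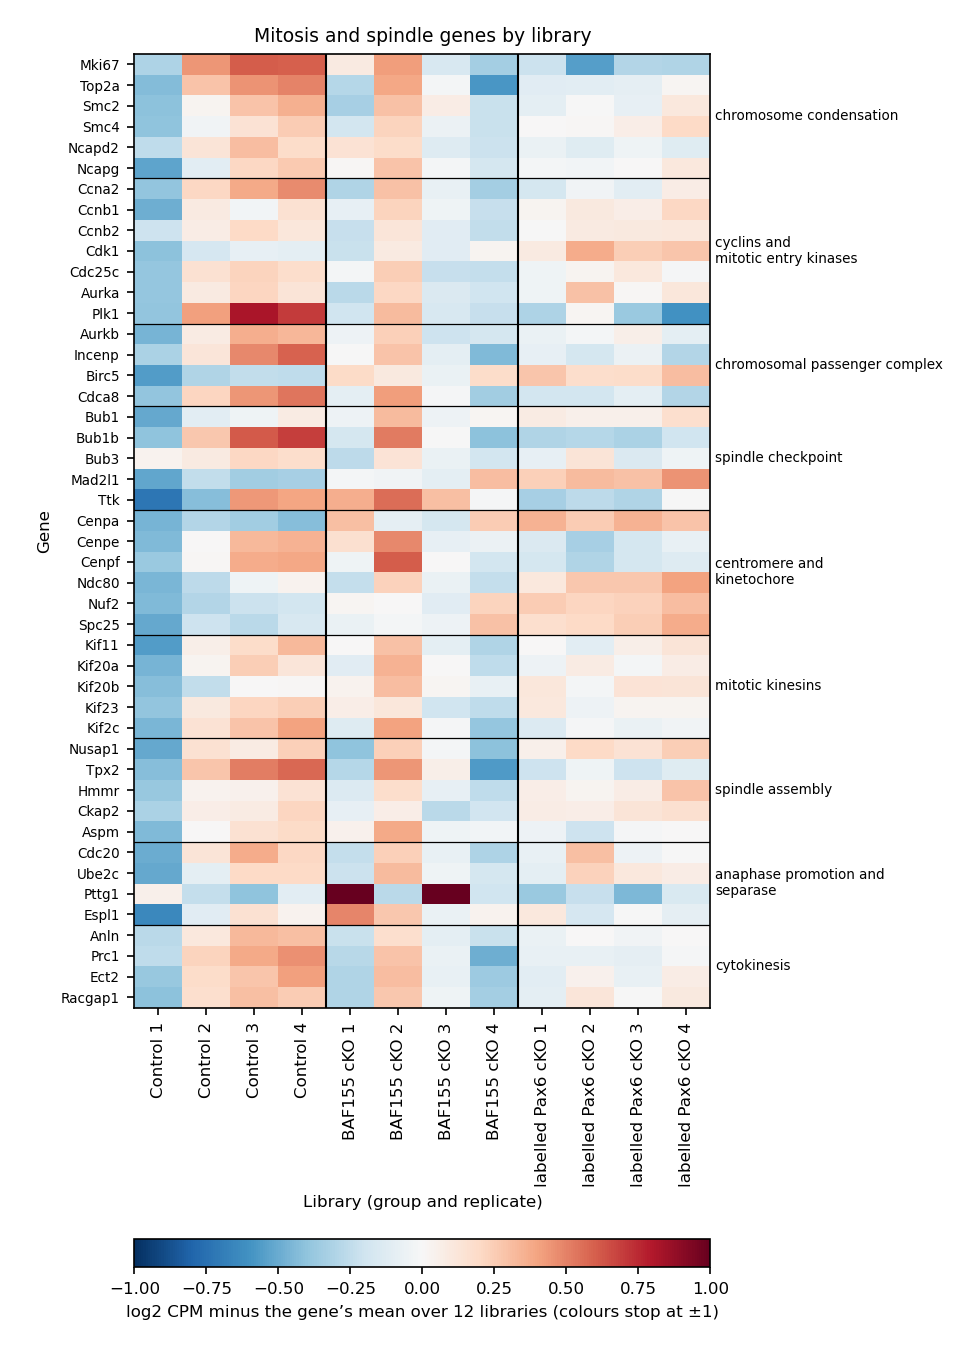
Level of each of the 46 genes (rows, grouped by role) in each of the 12 libraries (columns), coloured by log2 CPM minus the mean of that gene over the 12 libraries, with colours that stop at ±1. Control 1 is the lowest library for 36 genes.

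In BAF155 cKO, 5 of the 46 genes rose against Control, and none fell. They were the centromere and kinetochore genes Cenpa, Nuf2 and Spc25, the checkpoint gene Mad2l1 and the passenger complex gene Birc5, with rises of 1.25 to 1.38 times. 41 genes did not pass the test. By edgeR's quasi-likelihood test with Benjamini-Hochberg adjustment at 0.05, 13.6% of all genes tested were called in this contrast, 6.04% higher and 7.56% lower, so the 5 of 46 (10.9%) lay near the background. At an unadjusted p under 0.05 there were 7 higher and 3 lower. DESeq2 called 6 higher and none lower, and limma-voom 5 higher and none lower. In the same 5 genes all 4 BAF155 cKO libraries lay above all 4 controls, as for 6.47% of all genes, and no gene of the 46 showed the reverse, against 7.95% of all. The median log2 fold change of the 46 was −0.10, with 27 of 46 below 0, beside a median of 0.01 over all genes tested. In a simulation of this contrast, 84 of 100 genes changed by 1 on the log2 scale and 44 of 100 changed by 0.5 were called, so genes changed by 0.5 were missed more often than called.

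Against Control, 7 of the 46 genes rose in the libraries labelled Pax6 cKO and 3 fell. The 5 genes above rose here as well, with Cdk1 and Ndc80, by 1.35 to 1.61 times. Mki67, Plk1 and Bub1b fell, to 0.596 to 0.648 times the control level. The remaining 36 did not pass the test. In this contrast 35.5% of all genes tested were called, 16.6% higher and 18.9% lower, and the 10 of 46 (21.7%) lay below that share. At an unadjusted p under 0.05 there were 8 higher and 5 lower. In the 7 risen genes all 4 libraries lay above all 4 controls, as for 17.2% of all genes, and none of the 46 showed the reverse, against 18.3% of all. The median log2 fold change was −0.04, beside 0.02 over all genes tested. The 2 contrasts share the 4 control libraries, so the 5 genes called in both are not 2 independent findings.

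**Figure D3:**
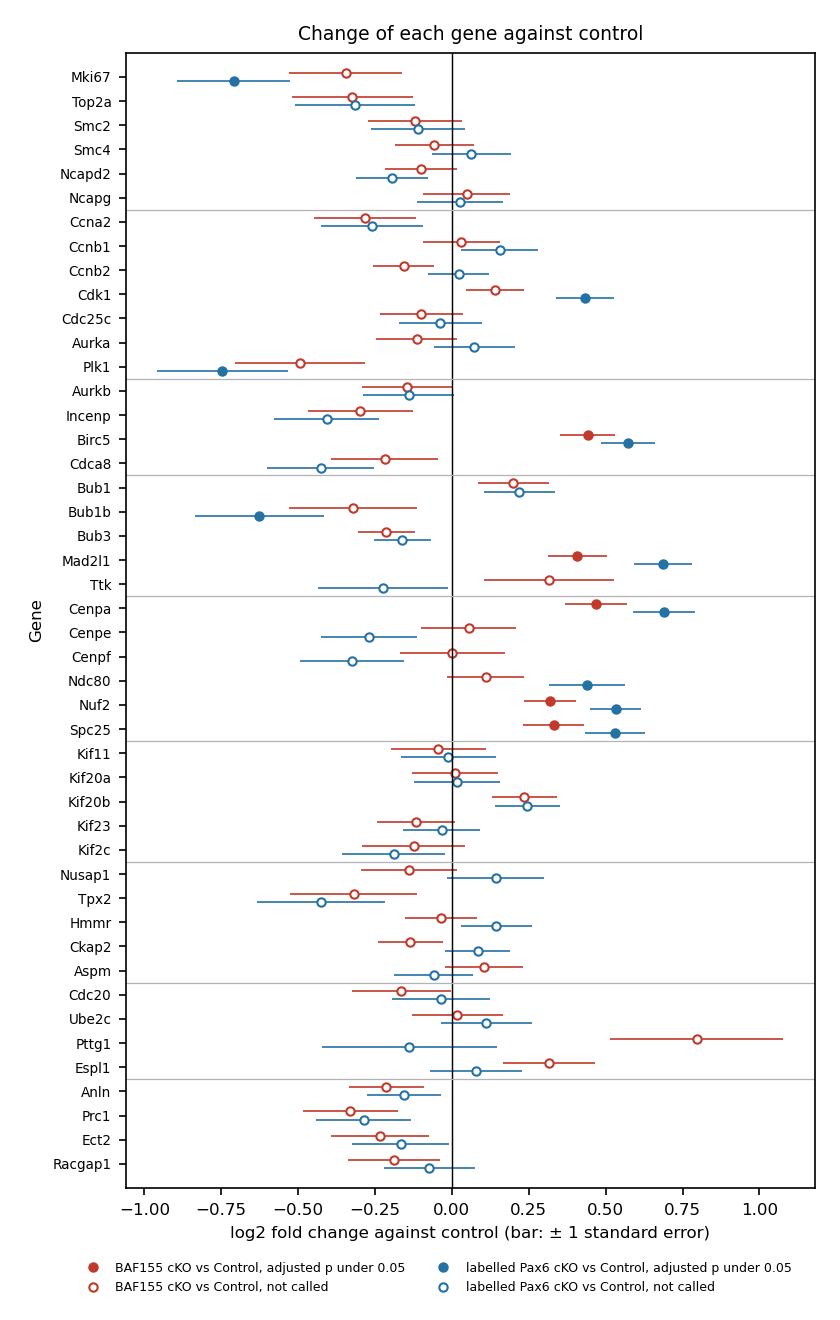
Log2 fold change against Control (x axis, bars of 1 SE) for each of the 46 genes (y axis), in BAF155 cKO and in the libraries labelled Pax6 cKO; filled points have an adjusted p under 0.05 by edgeR. 5 genes are filled in BAF155 cKO and 10 in the libraries labelled Pax6 cKO.

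The counts of lower genes turned on Control 1 and on the sex of the controls. Without Control 1, 4 genes were higher and 8 lower in BAF155 cKO, where 19.4% of all genes were called (8.22% higher, 11.2% lower), with a median log2 fold change of −0.22. For the libraries labelled Pax6 cKO it was 7 higher and 15 lower, where 39.7% of all genes were called (17.5% higher, 22.2% lower). Against the 2 female controls, 3 genes were higher in BAF155 cKO (Birc5, Cenpa, Mad2l1) and 6 lower (Anln, Bub1b, Ccna2, Incenp, Plk1, Prc1), where 26.0% of all genes were called (11.2% higher, 14.8% lower). Against the 2 male controls, 8 were higher in the libraries labelled Pax6 cKO (the same 7 and Kif20b) and none lower, where 10.1% of all genes were called (3.99% higher, 6.11% lower). In that fit 12 were higher and 1 lower at an unadjusted p under 0.05. With the BAF155 cKO libraries of lane 1 alone, 2 of the 46 were called, both higher, where 3.98% of all genes were called, and with those of lane 3 alone 4, all higher, where 12.4% were.

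Cenpa encodes the histone H3 variant that marks centromeres (ENSMUSG00000029177, chromosome 5, 30666777 to 30674830, plus strand, mm10). Its level was 67.5, 75.8, 73.2 and 69.3 CPM in Control 1 to 4, 114, 87.2, 82.4 and 111 in BAF155 cKO 1 to 4 and, for the libraries labelled Pax6 cKO, 118, 111, 118 and 113. All 8 libraries labelled cKO lay above every control, and BAF155 cKO 2 and 3 stood closest to the controls. Cenpa was higher than in Control by 0.47 ± 0.10 (SE; adjusted p 0.00715) on the log2 scale in BAF155 cKO, and the libraries labelled Pax6 cKO exceeded Control by 0.69 ± 0.10 (SE; adjusted p 0.000196), by edgeR. The call held in all 24 alternatives for BAF155 cKO and all 22 for the libraries labelled Pax6 cKO.

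Nuf2 (ENSMUSG00000026683, chromosome 1, 169497934 to 169531464, minus strand) and Spc25 (ENSMUSG00000005233, chromosome 2, 69193895 to 69206194, minus strand) encode subunits of the NDC80 complex, which attaches the kinetochore to microtubules. Nuf2 stood at 48.7, 53.9, 56.9 and 58.2 CPM in Control 1 to 4, 66.9, 66.3, 61.3 and 77.1 in BAF155 cKO and, for the libraries labelled Pax6 cKO, 78.9, 76.6, 77.7 and 81.7. Spc25 stood at 46.3, 57.2, 54.9 and 59.1 CPM in Control, 63.3, 65.3, 63.99 and 81.1 in BAF155 cKO and, for the libraries labelled Pax6 cKO, 74.3, 75.8, 78.2 and 85.7. For both genes the groups did not overlap with Control, and BAF155 cKO 4 was the highest of its group. Nuf2 was higher than in Control by 0.32 ± 0.08 (SE; adjusted p 0.0223) on the log2 scale in BAF155 cKO, and the libraries labelled Pax6 cKO exceeded Control by 0.53 ± 0.08 (SE; adjusted p 0.000375), by edgeR. Spc25 was higher by 0.33 ± 0.10 (SE; adjusted p 0.0381) and 0.53 ± 0.10 (SE; adjusted p 0.00134) in the same order. Without BAF155 cKO 4, edgeR's adjusted p in BAF155 cKO was 0.0832 for Nuf2 and 0.136 for Spc25, and neither was called there against the female controls (0.0948 and 0.126). The BAF155 cKO call held in 17 of 24 alternatives for Nuf2 and 13 of 24 for Spc25, with adjusted p-values of at most 0.0948 and 0.194 by edgeR. Both calls held in all 22 alternatives for the libraries labelled Pax6 cKO.

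Ndc80 (ENSMUSG00000024056, chromosome 17, 71496100 to 71526857, minus strand), the subunit that binds the microtubule, stood at 20.5, 23.4, 27.3 and 28.8 CPM in Control 1 to 4, 23.8, 32.98, 26.8 and 23.9 in BAF155 cKO and, for the libraries labelled Pax6 cKO, 30.3, 33.96, 33.98 and 37.2. The latter lay above all controls, while BAF155 cKO overlapped with them. By edgeR, Ndc80 rose in the libraries labelled Pax6 cKO, with a log2 change of 0.44 ± 0.12 (SE; adjusted p 0.0131), and its value in BAF155 cKO was 0.11 ± 0.12 (SE; adjusted p 0.552). The remaining kinetochore genes were Cenpe, a plus-end kinesin of the kinetochore, and Cenpf, a large protein of its outer corona. Neither passed the test. Their log2 fold changes were 0.05 and 0.00 in BAF155 cKO and −0.27 and −0.33 in the libraries labelled Pax6 cKO. Of the 6 centromere and kinetochore genes, 3 were thus called higher in BAF155 cKO and 4 in the libraries labelled Pax6 cKO, and none lower in either, beside 6.04% and 16.6% of all genes higher. Without Control 1 there were 2 higher in BAF155 cKO (Cenpa, Nuf2), and for the libraries labelled Pax6 cKO 4 higher and 2 lower (Cenpe, Cenpf). Against same-sex controls 1 (Cenpa) was higher in BAF155 cKO, while the other contrast kept 4 higher and none lower (0 lower at an unadjusted p under 0.05).

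Mad2l1 (ENSMUSG00000029910, chromosome 6, 66535390 to 66547220, plus strand) encodes MAD2, the checkpoint protein that inhibits CDC20 at unattached kinetochores. Its level was 55.1, 66.8, 62.2 and 62.9 CPM in Control 1 to 4, 78.2, 77.3, 74.2 and 98.1 in BAF155 cKO and, for the libraries labelled Pax6 cKO, 93.2, 98.5, 97.2 and 108. All 8 libraries labelled cKO lay above every control. Mad2l1 was higher than in Control by 0.41 ± 0.10 (SE; adjusted p 0.0121) on the log2 scale in BAF155 cKO, and the libraries labelled Pax6 cKO exceeded Control by 0.69 ± 0.10 (SE; adjusted p 0.000139), by edgeR. With only the lane 1 libraries of BAF155 cKO, edgeR's adjusted p was 0.0635, and the call held in the other 23 of 24 alternatives.

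Bub1b (ENSMUSG00000040084, chromosome 2, 118598211 to 118641591, plus strand), which encodes the checkpoint protein BUBR1, stood at 50.9, 80.8, 103 and 108 CPM in Control 1 to 4, 59.6, 96.6, 66.9 and 50.6 in BAF155 cKO and, for the libraries labelled Pax6 cKO, 54.6, 55.05, 54.01 and 58.5. The latter lay between Control 1 and the other controls, so the groups overlapped. By edgeR, Bub1b fell in the libraries labelled Pax6 cKO, with a log2 change of −0.63 ± 0.21 (SE; adjusted p 0.031), and its value in BAF155 cKO was −0.32 ± 0.21 (SE; adjusted p 0.29). Against the 2 male controls the former was −0.25 with an adjusted p of 0.499, and the call held in 12 of 22 alternatives. Bub1, Bub3 and Ttk, the rest of the checkpoint genes, did not pass the test in either contrast. Ttk stood at 43.3, 49.4, 41.4 and 33.4 CPM in BAF155 cKO and 26.7, 28.1, 27.3 and 33.4 in the libraries labelled Pax6 cKO.

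Birc5 (ENSMUSG00000017716, chromosome 11, 117849251 to 117855743, plus strand) encodes survivin, which places the chromosomal passenger complex on centromeres. Its level was 33.5, 40.2, 41.7 and 41.5 CPM in Control 1 to 4, 56.4, 53.003, 47.1 and 56.2 in BAF155 cKO and, for the libraries labelled Pax6 cKO, 59.9, 55.8, 56.1 and 61.2. All controls lay below the 8 libraries labelled cKO. Birc5 was higher than in Control by 0.44 ± 0.09 (SE; adjusted p 0.0046) on the log2 scale in BAF155 cKO, and the libraries labelled Pax6 cKO exceeded Control by 0.57 ± 0.09 (SE; adjusted p 0.000329), by edgeR, and both calls held in every alternative (24 and 22). Its 3 partners in the complex did not pass the test in either contrast, though DESeq2 called Cdca8 lower in the libraries labelled Pax6 cKO. Without Control 1, edgeR called Incenp lower in BAF155 cKO and Aurkb, Incenp and Cdca8 lower in the libraries labelled Pax6 cKO, and Incenp was also lower in BAF155 cKO against the female controls. Aurkb, the kinase of the complex, stood at 33.8, 49.4, 59.9 and 58.5 CPM in Control 1 to 4, 45.003, 55.002, 40.4 and 41.1 in BAF155 cKO and, for the libraries labelled Pax6 cKO, 44.5, 45.9, 48.5 and 43.5. Incenp, the scaffold, had log2 fold changes of −0.30 and −0.41 (edgeR's adjusted p 0.232 and 0.0737), and Cdca8, the borealin gene, −0.22 and −0.43 (0.39 and 0.0675).

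**Figure D4:**
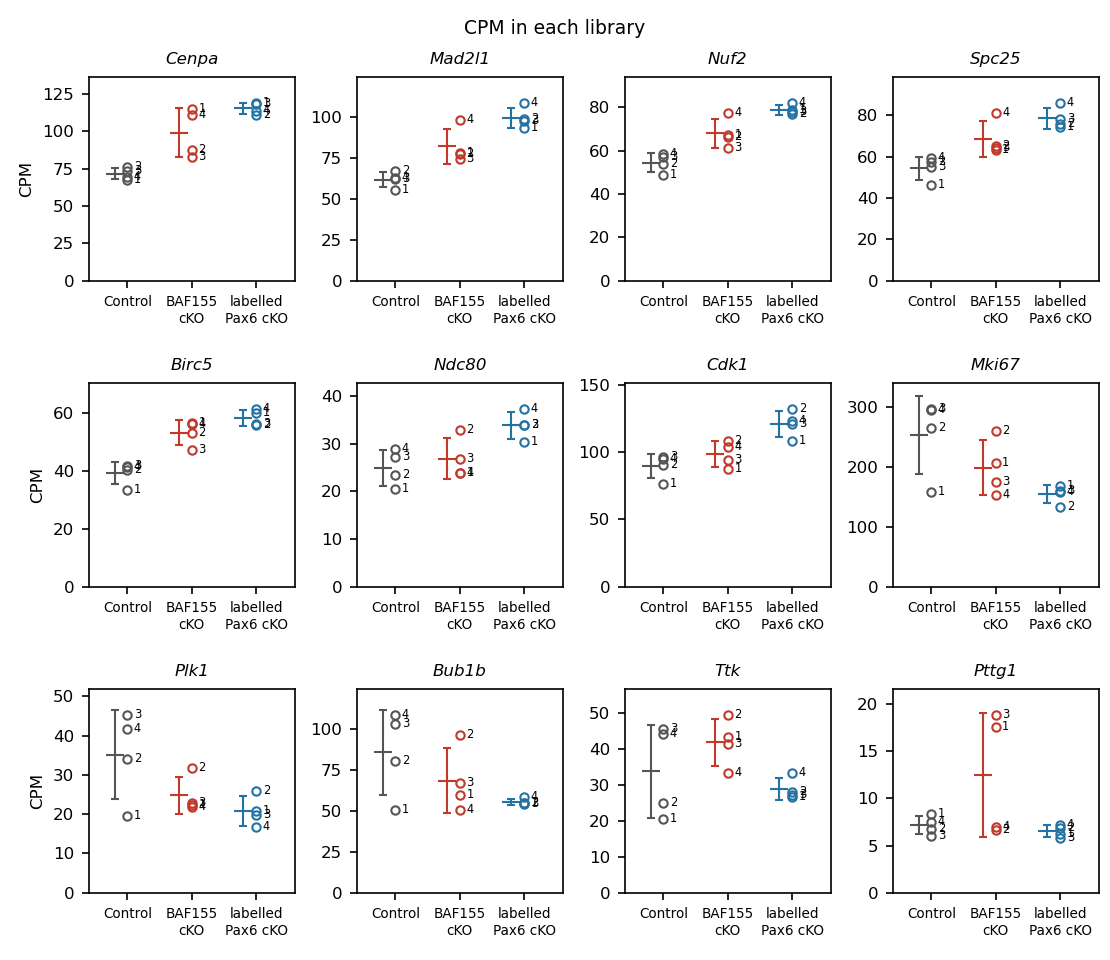
CPM (y axis) of the 10 genes called in a contrast with Control and of Ttk and Pttg1, by group (x axis); circles are libraries numbered by replicate, and bars beside them give the mean and SD (n = 4). In the 7 risen genes the libraries labelled Pax6 cKO lie above all controls, and in Mki67, Plk1 and Bub1b Control 1 lies among them or below them.

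Among the 7 cyclin and entry kinase genes, none passed edgeR's test in BAF155 cKO, where 1 lay at an unadjusted p under 0.05 and DESeq2 and limma-voom called none. Without Control 1, and also against the female controls, 2 of the 7 were lower there. Cdk1 rose and Plk1 fell in the libraries labelled Pax6 cKO. Cdk1 (ENSMUSG00000019942, chromosome 10, 69335146 to 69352938, minus strand), the kinase that drives entry into mitosis, stood at 76.6, 90.5, 96.3 and 95.1 CPM in Control 1 to 4, 87.6, 109, 94.5 and 104 in BAF155 cKO and, for the libraries labelled Pax6 cKO, 108, 132, 121 and 123. The latter lay above all controls, and BAF155 cKO overlapped with them. By edgeR, Cdk1 rose in the libraries labelled Pax6 cKO, with a log2 change of 0.43 ± 0.09 (SE; adjusted p 0.00347), and its value in BAF155 cKO was 0.14 ± 0.09 (SE; adjusted p 0.31).

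Plk1 (ENSMUSG00000030867, chromosome 7, 122159439 to 122169873, plus strand), polo-like kinase of mitotic entry and spindle poles, stood at 19.5, 34.1, 45.1 and 41.6 CPM in Control 1 to 4, 22.4, 31.8, 22.96 and 21.9 in BAF155 cKO and, for the libraries labelled Pax6 cKO, 20.7, 26.001, 19.8 and 16.9. Control 1 lay below all 4 BAF155 cKO libraries and inside the range of the libraries labelled Pax6 cKO, and the other controls lay above all of the latter. By edgeR, Plk1 fell in the libraries labelled Pax6 cKO, with a log2 change of −0.75 ± 0.21 (SE; adjusted p 0.014), and its value in BAF155 cKO was −0.49 ± 0.21 (SE; adjusted p 0.123). Against same-sex controls the calls changed places: BAF155 cKO had −0.81 (adjusted p 0.0149) and the libraries labelled Pax6 cKO −0.37 (adjusted p 0.298), by edgeR. Without Control 3 the fall in the libraries labelled Pax6 cKO had an adjusted p of 0.0616. Its exons share 7.09% of their length with a gene on the opposite strand, and the library kit does not mark strand.

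Ccnb1, the cyclin partner of CDK1 at mitosis, stood at 25.4, 37.9, 34.96 and 39.7 CPM in Control 1 to 4, 33.7, 41.5, 34.7 and 30.5 in BAF155 cKO and, for the libraries labelled Pax6 cKO, 36.5, 38.3, 37.4 and 41.3. Aurka, the spindle pole kinase, stood at 31.2, 43.4, 47.3 and 44.6 CPM in Control, 33.8, 47.01, 36.97 and 35.6 in BAF155 cKO and, for the libraries labelled Pax6 cKO, 39.6, 50.1, 41.1 and 44.1. Both overlapped between all groups. Ccna2 stood at 79.6, 121, 137 and 145 CPM in Control, 85.2, 129, 99.4 and 82.99 in BAF155 cKO and, for the libraries labelled Pax6 cKO, 92.8, 102, 97.3 and 110.3. Like Ccnb2, the second B-type cyclin, and Cdc25c, the phosphatase that activates CDK1, it did not pass the test in either contrast. Over the 7 genes the log2 fold changes ran from −0.49 to 0.14 in BAF155 cKO and from −0.75 to 0.43 in the libraries labelled Pax6 cKO.

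Mki67 (ENSMUSG00000031004, chromosome 7, 135689784 to 135716361, minus strand) encodes Ki-67, the coat protein of mitotic chromosomes used as a marker of cycling cells. Its level was 157, 264, 296 and 294 CPM in Control 1 to 4, 207, 260.1, 174 and 154 in BAF155 cKO and, for the libraries labelled Pax6 cKO, 168, 133, 159 and 158. Control 1 lay among the libraries labelled Pax6 cKO, and the other 3 controls lay above all of them. By edgeR, Mki67 fell in the libraries labelled Pax6 cKO, with a log2 change of −0.71 ± 0.18 (SE; adjusted p 0.00881), and its value in BAF155 cKO was −0.34 ± 0.18 (SE; adjusted p 0.2). Against the 2 male controls the former was −0.46 with an adjusted p of 0.179. With no filter on low counts its adjusted p was 0.0527, and the call held in 20 of 22 alternatives.

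The other 5 condensation genes did not pass the test in either contrast. Top2a stood at 236, 388, 435 and 449 CPM in Control 1 to 4, 261, 417, 313 and 212 in BAF155 cKO and, for the libraries labelled Pax6 cKO, 294, 295, 299 and 323. Ncapd2 stood at 216, 282, 320.2 and 293 CPM in Control, 285, 293, 236 and 222 in BAF155 cKO and, for the libraries labelled Pax6 cKO, 247, 238, 250.1 and 237. In both genes Control 1 was the lowest control. Top2a had log2 fold changes of −0.32 and −0.31 (adjusted p 0.257 and 0.222, edgeR) and was called lower in both contrasts without Control 1, with adjusted p-values of 0.048 and 0.0257. The condensin genes Smc2, Smc4, Ncapd2 and Ncapg lay between −0.12 and 0.05 in BAF155 cKO and between −0.19 and 0.06 in the libraries labelled Pax6 cKO. Without Control 1, Ncapd2 was called lower in the libraries labelled Pax6 cKO.

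None of the 5 mitotic kinesins, 5 spindle assembly genes, 4 anaphase genes and 4 cytokinesis genes passed edgeR's test in either contrast with Control. Of these 18, 2 were higher and 1 lower at an unadjusted p under 0.05 in BAF155 cKO, and 1 was higher in the libraries labelled Pax6 cKO. DESeq2 called 1, Pttg1, higher in BAF155 cKO, and limma-voom none. Without Control 1, 2 were lower in BAF155 cKO (Anln, Prc1) and 4 in the libraries labelled Pax6 cKO (Anln, Kif2c, Prc1, Tpx2). Against same-sex controls, Anln and Prc1 were lower in BAF155 cKO and Kif20b was higher in the libraries labelled Pax6 cKO. With a correction for exon length and GC content, Espl1 was higher in BAF155 cKO. The kinesins lay between −0.12 and 0.24 on the log2 scale in BAF155 cKO and between −0.19 and 0.24 in the libraries labelled Pax6 cKO. Kif11, which slides spindle microtubules apart, stood at 101, 154, 168 and 186 CPM in Control 1 to 4, 149, 182, 139 and 120.5 in BAF155 cKO and, for the libraries labelled Pax6 cKO, 149, 138, 154 and 163. Kif20b had log2 fold changes of 0.24 and 0.24 (adjusted p 0.139 and 0.0835, edgeR). Kif20a, Kif23 and Kif2c, which act at the midzone or at kinetochores, are included in the ranges. 29.3% of the exon length of Kif20a overlaps the exons of Cdc23 on the opposite strand, so its reads cannot be told apart from those of Cdc23 there.

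The spindle assembly genes lay between −0.32 and 0.10 in BAF155 cKO and between −0.43 and 0.14 in the libraries labelled Pax6 cKO. Aspm, a spindle pole gene mutated in primary microcephaly, stood at 58.2, 79.04, 87.7 and 90.3 CPM in Control 1 to 4, 81.5, 103, 76.5 and 77.4 in BAF155 cKO and, for the libraries labelled Pax6 cKO, 76.2, 68.5, 78.3 and 79.3. Its groups overlapped. Tpx2 stood at 81.4, 133, 156 and 163 CPM in Control, 89.9, 149, 114 and 74.2 in BAF155 cKO and, for the libraries labelled Pax6 cKO, 94.9, 106, 94.9 and 101. It had the lowest log2 fold changes of the role, −0.32 and −0.43 (adjusted p 0.29 and 0.121, edgeR). Nusap1, Hmmr and Ckap2, which bind or bundle microtubules, had adjusted p-values of 0.549, 0.848 and 0.376 in BAF155 cKO and 0.496, 0.343 and 0.554 in the libraries labelled Pax6 cKO, by edgeR.

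Among the anaphase genes, Pttg1 split the BAF155 cKO group. It stood at 17.5, 6.64, 18.8 and 6.96 CPM in BAF155 cKO 1 to 4, 8.30, 6.77, 6.04 and 7.45 in Control and, for the libraries labelled Pax6 cKO, 6.18, 6.83, 5.85 and 7.20. BAF155 cKO 1 and 3 lay above every other library, and BAF155 cKO 2 and 4 lay among the controls. Its log2 fold change in BAF155 cKO was 0.80 ± 0.28 (SE; adjusted p 0.0698) by edgeR. Cdc20 stood at 37.3, 57.7, 68.2 and 60.7 CPM in Control 1 to 4, 44.6, 61.96, 49.98 and 42.6 in BAF155 cKO and, for the libraries labelled Pax6 cKO, 49.9, 64.7, 50.9 and 52.6, with overlap of all groups. Ube2c, the ubiquitin-conjugating enzyme of the anaphase-promoting complex, had log2 fold changes of 0.02 and 0.11, and 22.8% of its exon length overlaps Tnnc2 on the opposite strand. Espl1, the separase gene, had 0.32 and 0.08, and it was called higher in BAF155 cKO after a correction for exon length and GC content.

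All 4 cytokinesis genes had log2 fold changes below 0 in both contrasts, from −0.33 to −0.19 in BAF155 cKO and from −0.29 to −0.07 in the libraries labelled Pax6 cKO, with none called. Racgap1 stood at 118, 176, 193 and 186 CPM in Control 1 to 4, 127, 188, 152 and 124 in BAF155 cKO and, for the libraries labelled Pax6 cKO, 146, 170, 156 and 167. Prc1, which bundles midzone microtubules, had −0.33 and −0.29 (adjusted p 0.151 and 0.158, edgeR), and Anln, the anillin gene of the cleavage furrow, −0.21 and −0.16. Ect2, the exchange factor that activates RhoA at the furrow, had −0.23 and −0.17. Prc1 and Anln were called lower in BAF155 cKO against the 2 female controls.

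Between the groups labelled cKO, none of the 46 genes passed edgeR's test for BAF155 cKO against the libraries labelled Pax6 cKO, where 4.31% of all genes were called. At an unadjusted p under 0.05 there were 7, DESeq2 called 1, Pttg1, and limma-voom none. The median log2 difference was −0.04, beside 0.01 over all genes tested, and 31 of 46 lay below 0. The difference (BAF155 cKO relative to the libraries labelled Pax6 cKO) was −0.22 ± 0.10 (SE) for Cenpa, −0.28 ± 0.09 for Mad2l1, −0.21 ± 0.08 for Nuf2, −0.20 ± 0.10 for Spc25 and −0.13 ± 0.09 for Birc5. Their adjusted p-values by edgeR were 0.209, 0.107, 0.153, 0.255 and 0.411. For Cdk1 it was −0.29 ± 0.09 (SE; adjusted p 0.0907) and for Ndc80 −0.33 ± 0.12 (SE; adjusted p 0.139), by edgeR. The calls of these 2 genes in a single contrast with Control are therefore not shown to differ between these groups. Mki67, Plk1 and Bub1b had differences of 0.37, 0.25 and 0.30, with adjusted p-values of 0.264, 0.531 and 0.426 by edgeR. Sex differed between these 2 groups in every library, so sex and genotype cannot be told apart.

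The 5 genes called in both contrasts were next set against the level of the whole list, as a description of genes chosen after their values were seen. Their summed level was 251, 294, 289 and 291 CPM in Control 1 to 4, 379, 349, 329 and 424 CPM in BAF155 cKO and, for the libraries labelled Pax6 cKO, 425, 418, 428 and 449.9 CPM. As a share of the summed level of the 46 genes, this was 8.93%, 7.49%, 6.55% and 6.48% in Control, 10.9%, 7.82%, 9.30% and 13.3% in BAF155 cKO and 11.8%, 11.4%, 11.65% and 11.75% in the libraries labelled Pax6 cKO. BAF155 cKO 2, which had the highest summed level of its group, had the lowest share in it, and it lay below Control 1. The share of reads from mitochondrial genes was 2.92%, 1.57%, 2.09% and 3.27% in BAF155 cKO, 2.27%, 2.18%, 1.21% and 1.38% in Control and 2.91%, 2.04%, 2.83% and 2.68% in the libraries labelled Pax6 cKO. Both shares were highest in BAF155 cKO 4 and lowest in a female control. The part of the mitochondrial share in the result was not tested. After the correction for exon length and GC content, chosen after seeing the data, Birc5, Cenpa, Mad2l1 and Nuf2 were still called in BAF155 cKO and Spc25 was not (adjusted p 0.0835).

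Other genes of mitosis, 62 that are not among the 46, were read in the same fit. In BAF155 cKO 8 rose and 1 fell (14.5%, beside 13.6% of all genes tested), with a median log2 fold change of 0.10. Of all genes tested, 6.04% were higher in this contrast and 7.56% lower. The risen genes were Cenph, Cenpi, Cenpk and Cenpq, subunits of the inner kinetochore, Spc24, the partner of Spc25, Ska1 of the SKA complex, the CDK subunit gene Cks1b and Psrc1. Cenpi rose by 0.54 ± 0.10 on the log2 scale (SE; adjusted p 0.00232, edgeR) and Ska1 by 0.58 ± 0.11 (adjusted p 0.0027). Iqgap3, a scaffold protein gene, fell by 0.49 (adjusted p 0.0406). Among the 62, 25 rose and 1 fell in the libraries labelled Pax6 cKO (41.9%, beside 35.5%), with a median of 0.19. There, 16.6% of all genes tested were higher and 18.9% lower. All 8 genes above were among the 25, with Oip5 and Hjurp, which take part in loading CENP-A onto centromeres. Oip5 rose by 1.13 ± 0.11 (adjusted p 6.13e-06, edgeR), from 10.2 ± 1.14 to 22.4 ± 2.33 CPM (SD, n = 4), and Ska1 rose by 0.84 ± 0.11 (adjusted p 6.69e-05). Oip5 shares 172 exonic bases with Nusap1 on the opposite strand, so reads there cannot be told apart. Iqgap3 fell by 0.52 (adjusted p 0.0135). Between the groups labelled cKO, 4 of the 62 were lower in BAF155 cKO and none higher, among them Oip5 (−0.84, adjusted p 0.000824) and Kif18a (−0.44, adjusted p 0.0126), a kinesin that dampens chromosome movements. Against same-sex controls, 4 of the 62 were higher and 5 lower in BAF155 cKO (14.5%, beside 26.0% of all genes). In the libraries labelled Pax6 cKO 22 were higher and none lower (35.5%, beside 10.1%), with 0 lower at an unadjusted p under 0.05. Without Control 1, 3 were higher and 5 lower in BAF155 cKO (12.9%, beside 19.4%). For the libraries labelled Pax6 cKO it was 21 higher and 11 lower (51.6%, beside 39.7%). With the correction for exon length and GC content, 5 of the 62 rose and none fell in BAF155 cKO (8.06%, beside 13.5% of all genes), with 3 lower at an unadjusted p under 0.05, and Cenph, Cenpq, Cks1b and Iqgap3 were no longer called. In the libraries labelled Pax6 cKO 16 rose and none fell (25.8%, beside 29.6%), with 2 lower at an unadjusted p under 0.05. The 13.5% and 29.6% count both directions. Of all 16511 genes, 999 rose and 1224 fell in BAF155 cKO with this correction. In the libraries labelled Pax6 cKO 2470 rose and 2425 fell.

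Of 38 S-phase genes, 7 rose and none fell in BAF155 cKO (3 lower at an unadjusted p under 0.05, 1 lower by DESeq2 and none by limma-voom), or 18.4% beside 13.6% of all genes. In the libraries labelled Pax6 cKO 9 rose and 4 fell, or 34.2% beside 35.5%, which is near the background. Prim1, the primase catalytic subunit, rose by 0.57 ± 0.08 (adjusted p 0.000298, edgeR) and 0.78 ± 0.08 (adjusted p 9.26e-06). Rfc3, a clamp loader subunit, rose by 0.47 ± 0.09 in BAF155 cKO (adjusted p 0.00372) and Rfc4 by 0.58 ± 0.08 in the libraries labelled Pax6 cKO (adjusted p 0.0001). The helicase subunit gene Mcm3 fell by 0.76 ± 0.21 there (adjusted p 0.0112, edgeR). Uhrf1, which helps to maintain DNA methylation, fell there by 0.63 ± 0.20 (adjusted p 0.0267, edgeR). Against the 2 female controls, 4 S-phase genes were higher and 7 lower in BAF155 cKO (28.9%, beside 26.0% of all genes). Against the 2 male controls, 9 were higher in the libraries labelled Pax6 cKO and none lower (23.7%, beside 10.1%), with 0 lower at an unadjusted p under 0.05. Without Control 1, the S-phase counts were 5 higher and 7 lower in BAF155 cKO (31.6%, beside 19.4%) and 9 higher and 11 lower in the libraries labelled Pax6 cKO (52.6%, beside 39.7%). Between the groups labelled cKO, Gins1 of the replicative helicase was lower in BAF155 cKO (−0.31, adjusted p 0.0497). The list thus held risen and fallen genes beside a median of −0.02 in BAF155 cKO and 0.03 in the libraries labelled Pax6 cKO.

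Of 17 microcephaly and centrosome genes, none was called in BAF155 cKO by edgeR (2 at an unadjusted p under 0.05, 1 lower by DESeq2 and none by limma-voom), and 1 rose and 5 fell in the libraries labelled Pax6 cKO (35.3%, beside 35.5% of all genes, which is at the background). Plk4, the kinase of centriole duplication, rose by 0.25 ± 0.09 (adjusted p 0.0453, edgeR). Pcnt, the pericentrin gene, fell by 0.60 ± 0.16 (adjusted p 0.00878) and Cdk5rap2 by 0.42 ± 0.11 (adjusted p 0.00767). Against same-sex controls, 4 were lower in BAF155 cKO, where 26.0% of all genes were called. In the libraries labelled Pax6 cKO, where 10.1% of all genes were called, 1 was higher and none lower. At an unadjusted p under 0.05, 1 was lower there. With the correction for exon length and GC content, 3 were higher and 1 lower in the libraries labelled Pax6 cKO (23.5%, beside 29.6%), and 1 was higher in BAF155 cKO.

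Markers of the cell types of the cortex moved in the same libraries. Of all genes tested, 13.6% were called in BAF155 cKO and 35.5% in the libraries labelled Pax6 cKO. In the same order the called shares were 58.3% and 91.7% of radial glia markers and 50% and 70% of basal progenitor markers. They were 60% and 80% of ventral progenitor markers and 33.3% and 75% of neuron markers. Of 12 radial glia markers 7 fell in BAF155 cKO, and 9 fell and 2 rose in the libraries labelled Pax6 cKO. Their summed level was 3163 to 3291 CPM in Control, 2497 to 2808 in BAF155 cKO and, for the libraries labelled Pax6 cKO, 2704 to 2884. Of 10 markers of basal intermediate progenitors 4 fell and 1 rose in BAF155 cKO, and 7 fell in the libraries labelled Pax6 cKO. Their sum was 781 to 1185 CPM in Control, 557 to 792 in BAF155 cKO and, for the libraries labelled Pax6 cKO, 546 to 579, and within Control the lowest was Control 1, which was also lowest for the 46 genes. The basal progenitor sum of BAF155 cKO 2 lay above that of Control 1, so these groups overlapped, and those of the libraries labelled Pax6 cKO did not. Of 10 ventral progenitor markers 6 rose in BAF155 cKO and 8 in the libraries labelled Pax6 cKO, with sums of 358 to 552, 786 to 856 and 984 to 1119 CPM in the same order of groups. Of 12 neuron markers 4 fell in BAF155 cKO, and 8 fell and 1 rose in the libraries labelled Pax6 cKO, with sums of 9481 to 10593, 7139 to 9095 and 7868 to 9005 CPM. The radial glia, ventral and neuron sums did not overlap between Control and either group labelled cKO. Dlx1 made up most of the ventral sums of these groups, at 481 to 535 CPM in BAF155 cKO. In the libraries labelled Pax6 cKO it stood at 627 to 673 CPM, and in Control at 211 to 298 CPM. Gsx1 and Nkx2-1 overlapped with Control. Fabp7, a radial glia marker that rose in the libraries labelled Pax6 cKO, stood at 1116 to 1293 CPM there and 702 to 1006 CPM in Control. Erythroid markers (9 of 10 tested, with Hbb-bh1 near 0) summed to 272 to 372, 344 to 666 and 499.8 to 557 CPM, and the 666 CPM belonged to BAF155 cKO 4, in which Mad2l1, Nuf2 and Spc25 were highest of the group. 1 erythroid marker rose in BAF155 cKO and 2 in the libraries labelled Pax6 cKO (11.1% and 22.2% of the 9 tested). In the same order the summed levels were 71.9 to 97.75, 57.4 to 79.3 and 79.9 to 97.75 CPM for 10 microglia markers. They were 168 to 208, 146 to 219 and 196 to 218 CPM for 10 endothelial markers and 178 to 248, 175 to 250.004 and 243 to 272 CPM for 8 pericyte markers. For meningeal and fibroblast markers (6 of 8 tested, with Lum and Aldh1a2 near 0) they were 47.3 to 89.97, 43.95 to 60.8 and 98.05 to 129 CPM. Of these 4 lists, only the meningeal sums of the libraries labelled Pax6 cKO lay apart from Control. Crym made up most of them, at 33.3 to 73.5 CPM in Control and 81.3 to 112 CPM there, while Col1a1, Col1a2, Col3a1 and Foxc1 overlapped with Control. In the libraries labelled Pax6 cKO 2 microglia, 3 endothelial, 3 pericyte and 2 meningeal markers rose and 1 pericyte marker fell. The called shares there were 20% of microglia, 30% of endothelial, 50% of pericyte and 33.3% of meningeal markers tested. Of these, only the pericyte share lay above the 35.5% of all genes. In BAF155 cKO 1 microglia marker and 1 pericyte marker fell and 1 meningeal marker rose. These were 10%, 12.5% and 16.7% of the markers tested, beside 13.6% of all genes. The part of these cell types in the levels of the 46 genes was not tested.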

How the data were processed

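RNA from the embryonic cortex was purified with an RNeasy kit and made into libraries with the TruSeq RNA Sample Preparation v2 kit, per the labels' protocols, so strand is not marked. The deposited files hold raw counts of reads per Ensembl gene, 1 file per library, made by the authors on mm10, as the submitters' processing notes state. Aligner, counter and annotation: not given in the sources used here. Of 48709 identifiers, 48349 matched GENCODE M21, which gave symbols, positions and exon lengths, and the 360 others held at most 0.0397% of a library's reads. The 46 genes and the other gene lists were chosen with earlier results of these data known. The genes named with values were those called in a contrast, Mki67, Top2a, Cdk1, Ccnb1, Plk1, Aurka, Aurkb and Aspm, the highest per length in each role and, of the other lists, the 2 called genes of smallest adjusted p in each direction of each contrast. Further genes, such as Ttk, Pttg1, Espl1 and Kif20b, were singled out after their values were seen, and all 46 are accounted for.

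Counts of all 12 libraries were fitted with edgeR 4.0.16 (R 4.3.3; TMM scaling, filterByExpr, robust glmQLFit, 1 coefficient per group) over 16511 genes, and p-values were adjusted by Benjamini-Hochberg over all of them and called under 0.05. Libraries held 15155249 to 32047949 counted reads. For single genes, counting error was not set beside the spread between libraries. The SE is the log2 fold change divided by the square root of F. Alternatives were DESeq2 1.42.0, limma-voom (limma 3.58.1), RLE factors, a filter of 1 CPM in 4 libraries or none, the 8 libraries compared, a replicate block, same-sex controls, single lanes of BAF155 cKO and each library left out. A loess correction for exon length and GC content (span 0.3) was added after seeing the data. The fit was tested on simulated counts: of 16134 unchanged genes 13 were called. No 2 libraries agreed within sampling noise.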

Additional observations from a re-analysis of the deposited data

Results flagged for a closer look

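In each group of 4 libraries, a gene was looked at again where its highest or lowest library stood apart from the other 3 by more than Dixon's critical share of the range of the group. Of 147 such groups 7 met it, and chance gives about 1 in 20. In BAF155 cKO 4, Mad2l1 stood at 98.1 CPM beside 74.2 to 78.2 in the other 3 libraries of the group, and Spc25 at 81.1 CPM beside 63.3 to 65.3. In BAF155 cKO 2, Plk1 stood at 31.8 CPM beside 21.9 to 22.96. In Control 1, Cdc25c stood at 16.6 CPM beside 24.0 to 25.3. In the libraries labelled Pax6 cKO, Ccnb2 stood at 42.03 CPM in replicate 1 beside 44.9 to 45.2, Kif20b at 43.6 CPM in replicate 2 beside 47.7 to 48.5, and Hmmr at 48.6 CPM in replicate 4 beside 40.5 to 41.8.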

How the results depend on the processing

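Single-gene values under an alternative were compared for the genes called in a contrast and for Mki67, Top2a, Cdk1, Ccnb1, Plk1, Aurka, Aurkb and Aspm. The rest of the 46 genes were not in this count. Of 1035 such values, 952 kept their direction and their side of the threshold, and none that was called turned its direction. The median log2 fold change of the 46 genes moved by at most 0.17, 0.18 and 0.12 in the 3 contrasts. The pooled SD of single libraries within groups was 0.21, which does not measure the error of a difference between groups. The median log2 fold change ranged from −0.27 to 0.06 for BAF155 cKO and from −0.19 to 0.15 for the libraries labelled Pax6 cKO. Its sign was therefore not settled, and the 0.15 came against the male controls. The counts moved by over 1.5 times as follows. For BAF155 cKO against Control (5 of the 46, 2246 of all genes), 3 were called with no filter on low counts, 3 with only the 8 libraries compared (1035 of all genes), 9 against the 2 female controls (4477) and 2 with the lane 1 libraries of BAF155 cKO (682). For the libraries labelled Pax6 cKO against Control (10 and 5866), 1739 of all genes were called against the 2 male controls. Between the groups labelled cKO (0 and 711), 1 was called by DESeq2 (1332), 1 with only the 8 libraries and 1 under the replicate block with length and GC correction, and 470 and 209 of all genes were called with the BAF155 cKO libraries of lane 1 and lane 3. Leaving out 1 library at a time gave 3 to 12 of the 46 and 1001 to 4073 of all genes for BAF155 cKO, 8 to 22 and 3825 to 6601 for the libraries labelled Pax6 cKO, and 0 to 2 and 307 to 900 between the groups labelled cKO. The highest counts of the 46 against Control, 12 and 22, were those without Control 1, and the 4073 that without BAF155 cKO 2, where 9 of the 46 were called. Fewer libraries entered the lane and leave-one-out fits. The same-sex fit kept all 12 libraries but set each group labelled cKO against 2 controls. The cause of the moves was not tested. With the replicate number as a block the counts were 5 and 2245, 10 and 5689, and 0 and 497. Same-numbered libraries did not all deviate together, so the numbers are not taken to pair them: correlations for numbers 1 to 4 were 0.29, −0.31, −0.05 and −0.34 between BAF155 cKO and Control, 0.14, −0.05, −0.12 and 0.01 between the libraries labelled Pax6 cKO and Control, and 0.50, 0.37, −0.26 and −0.06 between the groups labelled cKO. A gene changed by 0.5 on the log2 scale was called in 44 of 100 simulated cases, which limits what a missed call can show.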

Other observations

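Regulators of mitotic gene transcription, a list of 23 that shares no gene with the 46, were read in the same fit. In BAF155 cKO, Nfya, a subunit of the CCAAT-binding factor NF-Y, fell by 0.32 ± 0.09 on the log2 scale (SE; adjusted p 0.0339, edgeR), from 139 ± 2.98 to 111 ± 17.05 CPM (SD, n = 4), and no regulator rose (4 higher at an unadjusted p under 0.05, 1 higher by DESeq2 and none by limma-voom). In the libraries labelled Pax6 cKO 6 fell and 1 rose (30.4%, beside 35.5% of all genes called). With the correction for exon length and GC content, 2 rose and none fell in BAF155 cKO (3 lower at an unadjusted p under 0.05). Rbbp4, the histone chaperone of the MuvB core, rose by 0.45 ± 0.10 (adjusted p 0.00416, edgeR), while Tfdp2, a dimerization partner of E2F factors, fell by 0.47 ± 0.12 (adjusted p 0.00658) and E2f3 fell by 0.46 ± 0.11 (adjusted p 0.00684). Between the groups labelled cKO none was called by edgeR, DESeq2 or limma-voom, with 2 at an unadjusted p under 0.05 by edgeR. Against same-sex controls 1 was higher and 6 lower in BAF155 cKO, where 26.0% of all genes were called. None was called in the libraries labelled Pax6 cKO, where 10.1% of all genes were. At an unadjusted p under 0.05 there were 6 higher and 2 lower.

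Of 10 genes of cell-cycle exit, Cdkn1c, which encodes the CDK inhibitor p57, rose by 0.45 ± 0.13 in BAF155 cKO (adjusted p 0.0312, edgeR). In the libraries labelled Pax6 cKO 3 rose and 1 fell, or 4 of 10, near the 35.5% of all genes called. Btg1, an antiproliferative gene, rose by 0.71 ± 0.10 (adjusted p 0.000162), from 89.3 ± 12.7 to 146 ± 11.5 CPM, and Cdkn2d, the CDK4 and CDK6 inhibitor p19, rose by 0.42 ± 0.09 (adjusted p 0.00235). Btg2, an antiproliferative gene of progenitors that turn to neurogenesis, fell by 0.62 ± 0.10 (adjusted p 0.000397), from 79.1 ± 8.96 to 51.6 ± 0.33 CPM. Between the groups labelled cKO Btg2 was higher in BAF155 cKO (0.59, adjusted p 0.00337), and Btg1 (−0.44, adjusted p 0.0236) and Cdkn2d (−0.34, adjusted p 0.0375) were lower.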
